A study of Mus musculus with 4 samples.

Results

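The 10 genes of intestinal iron handling Slc11a2, Cybrd1, Slc40a1, Heph, Tfrc, Hfe, Hamp, Fth1, Ftl1 and Hmox1 were followed in small intestinal epithelium with constantly active IKKb. They were found on the arrays as every non-control probe whose listed gene name, or whose current symbol through its sequence accession, was one of these 10, which gave 16 of the 41174 probes, for 10 of 27734 gene names. The groups were IKKb(EE)IEC mice, in whose intestinal epithelial cells the kinase IKKb is held active by mutation, and their WT littermates, with 2 biological replicates each and no treatment. Total RNA came from cells freshly isolated from the small bowel and was labelled with Cy3 from 250 ng, and each sample had an array of its own. The promoter that drives the transgene, the mice behind each sample, their age and their iron status are not stated in the labels.

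Enterocytes take up dietary non-heme iron at the brush border and pass it to the blood at the basolateral membrane, and iron that is not passed on is held in ferritin and lost when the cell is shed. The liver hormone hepcidin limits export by binding the exporter ferroportin. Inside the cell, iron regulatory proteins bind stem loops in the transcripts of the transferrin receptor, the ferritins and others, so that uptake and storage are adjusted in opposite directions. IKKb activates the transcription factor NF-kB, and the design asks which transcripts differ when it is active all the time.

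The 75th percentile of the processed signal, a background-subtracted brightness, was 94.6 and 107.8 in IKKb(EE)IEC, against 60.3 and 66.1 in WT, and each array was set to its own percentile before levels were compared on the log2 scale. Of all spots, 40.8% and 41.1% were well above background on the IKKb(EE)IEC arrays and 34.3% and 36.0% on the WT arrays. A probe was tested if 2 or more of the 4 arrays showed it well above background, with 1 probe per gene, which left 12444 genes. At an adjusted p below 0.05 in limma, 999 genes rose and 899 fell, which is 15.3% of those tested. Higher genes made up 52.6% of these calls, a share that was 63.2% when arrays were aligned on their medians and 78.7% with a repaired background correction described with the processing. Over all genes the median difference was -0.12, and other scalings gave -0.08 to 0.01, so a member's difference is read against that shift. IKKb(EE)IEC arrays lay at positions 3 and 4 of the slide and WT arrays at positions 1 and 2, and position and genotype cannot be told apart. Ikbkb, the gene of the endogenous kinase, had 119 and 136 signal units on the IKKb(EE)IEC arrays, against 36.5 and 54.9 on the WT arrays (log2 difference 0.83 ± 0.211 SE, adjusted p by limma = 0.055). The labels do not say whether that probe also reads the transgene.

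Slc11a2, the brush border importer of ferrous iron, was the member called, 1.79-fold higher in IKKb(EE)IEC epithelium on its brightest probe. Its other tested probe differed by -0.09 and was not called. The mean of its tested probes differed by 0.37 and was not called either (adjusted p by limma = 0.153). Of the 8 members tested, 1 was called higher and 0 lower, while 15.3% of all genes were called, 8.03% higher and 7.22% lower, so the members' count is near the background. At an unadjusted p below 0.05 in limma there were 3 of the 8, of which 2 were higher and 1 lower. Over all 12444 genes tested there were 4743 at that level, 2057 higher and 2686 lower, so unadjusted counts are read against that share. In 5 of the 8 the genotypes did not overlap, 4 of them higher and 1 lower in IKKb(EE)IEC, a state found in 69.1% of all genes tested. The median difference of the 8 was 0.06, beside -0.12 over all genes. Cybrd1 and Hamp had no probe well above background on any array and were not tested. In RNA from a mixture of cells, fewer cells of a type and less RNA per cell cannot be told apart.

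**Figure D1:**
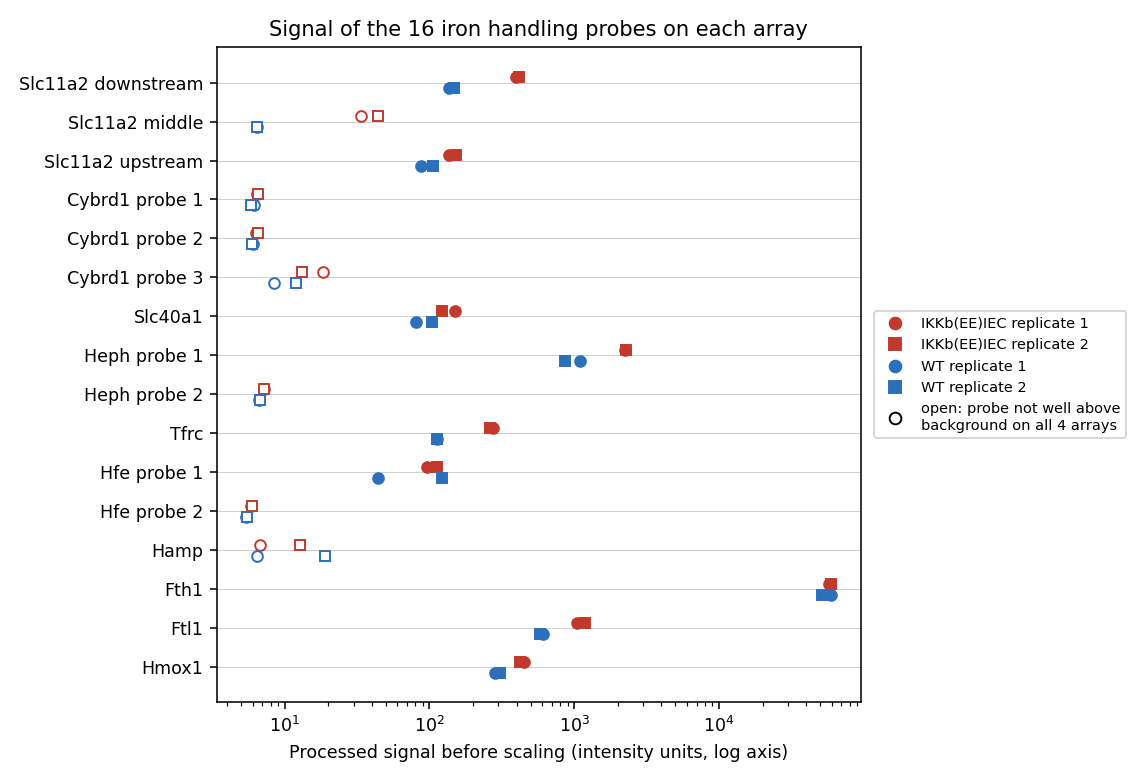
Processed signal in intensity units (log axis) of the 16 probes of the 10 genes before any scaling, with IKKb(EE)IEC arrays in red above WT arrays in blue, circles for replicate 1 and squares for replicate 2. Filled symbols mark the 9 probes well above background on all 4 arrays, and open symbols lie at 44.4 units or below. Fth1 lies between 51725 and 59904 units, and most filled probes are brighter on the IKKb(EE)IEC arrays, which were brighter as a whole.

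Among the genes of uptake, Slc11a2 had 3 probes on the array, all on the minus strand of chromosome 15 in mm8 coordinates. The most downstream probe, at chr15:100215936-100215995, had 396 and 418 signal units on the IKKb(EE)IEC arrays, against 137 and 148 on the WT arrays. After scaling, its log2 levels were 2.06 and 1.95 in IKKb(EE)IEC and 1.18 and 1.16 in WT. The genotypes were fully apart and the replicates within each lay close together. The difference was 0.84 ± 0.165 (SE, n = 2 each, 95% interval 0.43 to 1.25, adjusted p by limma = 0.034).

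The upstream probe of Slc11a2 did not show the same difference. This probe, 22183 bases away in the genome at chr15:100238119-100238178, had 137 and 152 signal units in IKKb(EE)IEC and 87.6 and 105.2 in WT. Its scaled log2 levels were 0.53 and 0.50 in IKKb(EE)IEC and 0.54 and 0.67 in WT, with all 4 arrays within a narrow range. Its difference was -0.09 ± 0.169 (SE, 95% interval -0.51 to 0.33, adjusted p by limma over 16406 probes = 0.719), where 13.9% of all probes were called. The middle probe, at chr15:100220950-100221009, was designed on another sequence entry and was well above background on 1 IKKb(EE)IEC array and no WT array. It had 33.5 and 44.4 units in IKKb(EE)IEC and 6.46 and 6.40 in WT, where the scanner software had substituted the value. Its scaled log2 levels in IKKb(EE)IEC were -1.50 and -1.28. The lowest level well above background on the WT arrays was -1.30 and -1.39, so no direction can be read from this probe. It was not tested. Both the downstream and the upstream probe carry the same RefSeq entry, and the files do not name the exon of either.

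Set against each other within the same array, which no shift of a whole array can alter, the downstream probe exceeded the upstream probe by 1.53 and 1.46 log2 units in IKKb(EE)IEC and by 0.64 and 0.49 in WT. This gap was 0.93 log2 units wider in IKKb(EE)IEC, with the genotypes apart. The exact permutation p was 0.333, two-sided, the smallest that 2 against 2 arrays allow, and it stayed 0.333 after adjustment over the 3 probe pairs compared this way. With the mean of its tested probes in place of the brightest one, Slc11a2 differed by 0.37 (adjusted p by limma = 0.153).

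**Figure D2:**
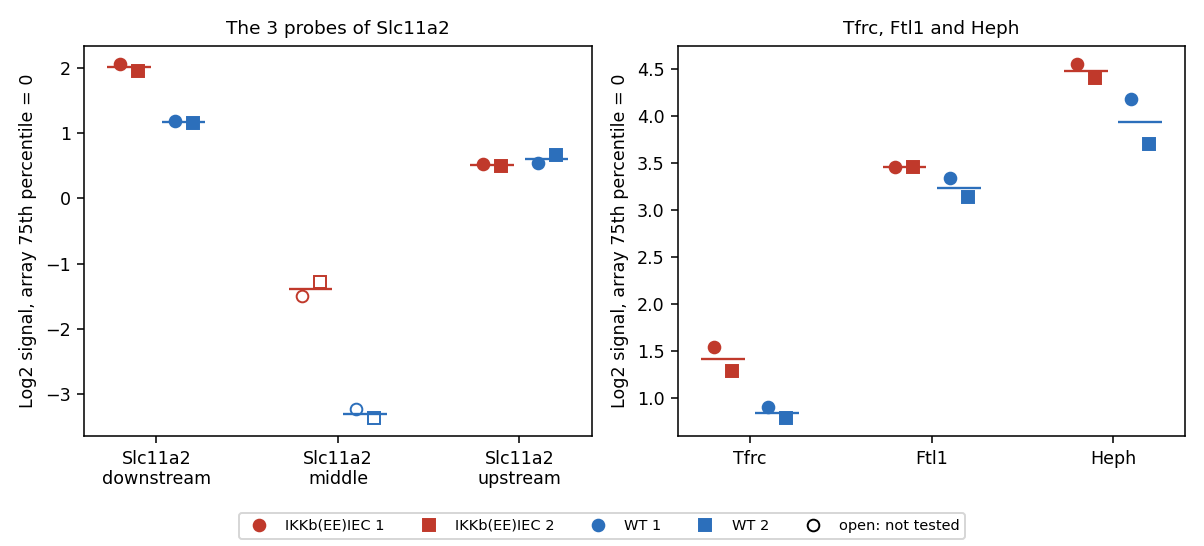
Log2 signal with each array's 75th percentile at 0, for the 3 probes of Slc11a2 at left and for Tfrc, Ftl1 and Heph at right. Each symbol is an array, IKKb(EE)IEC in red left of WT in blue, lines are genotype means, and open symbols mark a probe that was not tested. The genotypes are 0.84 apart on the downstream Slc11a2 probe and -0.09 apart on the upstream one.

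The call for Slc11a2 also depended on single arrays. Without IKKb(EE)IEC replicate 1 the difference was 0.78 (adjusted p by limma = 0.281) and without replicate 2 it was 0.89 (adjusted p = 0.267). Without WT replicate 1 or 2 the adjusted p was 0.003 and 0.006. In the authors' deposited table its downstream probe had 472.5 and 438.7 in IKKb(EE)IEC and 296.8 and 295.8 in WT. There the upstream probe had 232.6 and 230.2 in IKKb(EE)IEC and 223.2 and 242.6 in WT, and the gap between the probes was 0.63 log2 units wider in IKKb(EE)IEC there.

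Genes with the profile nearest to that of Slc11a2 over the 4 arrays were Ctss, which encodes the lysosomal protease cathepsin S, Dipk1a, and Mapk7, which encodes the kinase ERK5. Their centred log2 levels differed from those of Slc11a2 by a root mean square of 0.018, 0.020 and 0.026, and their differences between genotypes were 0.87, 0.81 and 0.79. Likeness over 4 arrays describes these arrays only.

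Cybrd1 encodes the ferric reductase of the duodenal brush border, which supplies Slc11a2 with ferrous iron. None of its 3 probes was well above background on any array. The probe on its RefSeq entry had 18.3 and 13.1 units in IKKb(EE)IEC and 8.39 and 11.9 in WT, and the genotypes overlapped after scaling. The scanner software had substituted the values of the other 2 probes on all 4 arrays.

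Neither gene of iron export passed the test. Slc40a1, which encodes ferroportin, had 150.04 and 123 units in IKKb(EE)IEC and 80.9 and 103.9 in WT at chr1:45852956-45853015 on the minus strand. Its scaled levels were 0.66 and 0.19 in IKKb(EE)IEC and 0.42 and 0.65 in WT, and the genotypes overlapped. The difference was -0.11 ± 0.226 (SE, 95% interval -0.68 to 0.45, adjusted p by limma = 0.735). Its sign turned under 4 of 15 alternatives, between -0.35 and 0.13.

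Heph encodes hephaestin, the basolateral copper oxidase that works with ferroportin. Its brighter probe, at chrX:92776943-92777002, had 2230.0 and 2289 units in IKKb(EE)IEC and 1092 and 862 in WT. The scaled levels were 4.56 and 4.41 in IKKb(EE)IEC and 4.18 and 3.70 in WT, with the WT arrays further from each other than the IKKb(EE)IEC arrays. The difference was 0.54 ± 0.22 (SE, 95% interval -0.01 to 1.09, adjusted p by limma = 0.135). It was 0.78 without WT replicate 1 and 0.30 without WT replicate 2. With the repaired background correction it passed at 0.88 (adjusted p by limma = 0.016). The other Heph probe was well above background on no array.

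**Figure D3:**
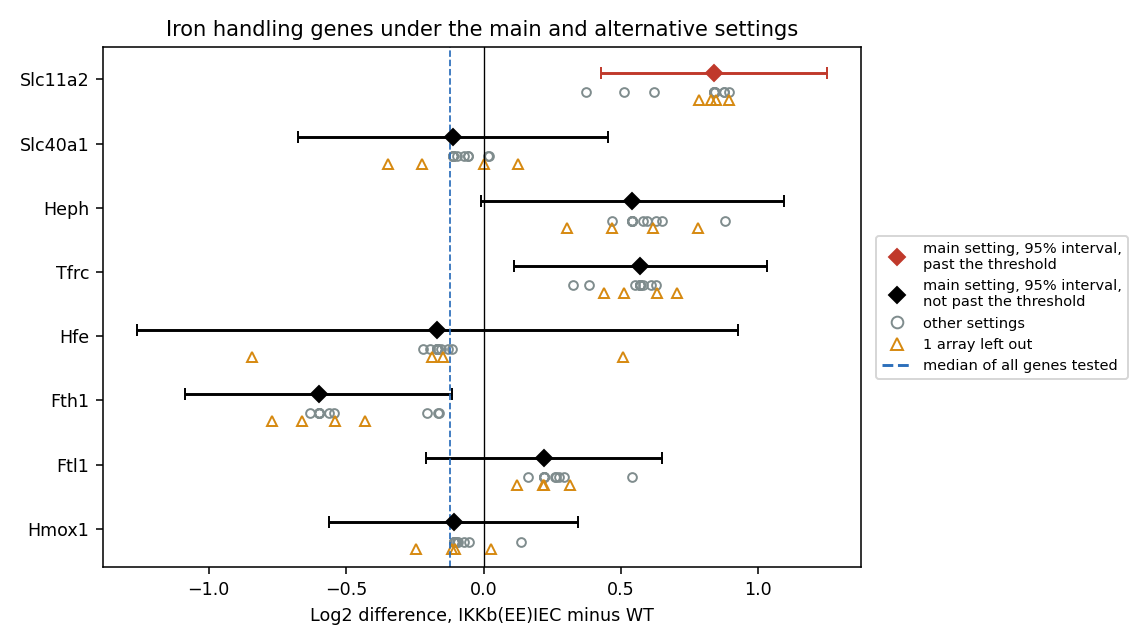
Log2 difference, IKKb(EE)IEC minus WT, of the 8 members tested. Diamonds with bars are the values and 95% intervals of the chosen processing, red where past the threshold (Slc11a2 at 0.84), circles are other settings, triangles leave out an array, and the dashed line is the median of all genes at -0.12. Hfe moves between -0.84 and 0.51 with a WT array left out, while Fth1 stays below 0 throughout.

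Of the genes around transferrin and hepcidin, Tfrc, Hfe and Hamp, none passed the test. Tfrc encodes the transferrin receptor, which takes up transferrin-bound iron from the blood side and whose transcript is held stable by iron regulatory proteins when iron is low. Its probe, at chr16:32551916-32551975, is printed 10 times on each array. It had 276 and 262 units in IKKb(EE)IEC and 113 and 114 in WT. The 10 spots differed by a standard deviation of 0.07 and 0.11 log2 units on the IKKb(EE)IEC arrays and 0.09 and 0.13 on the WT arrays, which is technical spread within an array only. Averaged over spots, the scaled levels were 1.54 and 1.28 in IKKb(EE)IEC and 0.90 and 0.78 in WT, without overlap. The difference was 0.57 ± 0.184 (SE, 95% interval 0.11 to 1.03), and the adjusted p by limma was 0.087. It was 0.63 without WT replicate 1 and 0.51 without WT replicate 2. With the repaired background correction it passed at 0.55 (adjusted p by limma = 0.038).

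Hfe, the membrane protein that binds the transferrin receptor and is mutated in human hereditary haemochromatosis, had 96.7 and 113 units in IKKb(EE)IEC. In WT it had 43.9 and 123 units, so the WT arrays enclosed the IKKb(EE)IEC arrays. A further Hfe probe was well above background on no array, and the scanner software had substituted its values on all 4 arrays. The scaled levels of the tested probe, at chr13:23711518-23711577, were 0.03 and 0.07 in IKKb(EE)IEC and -0.46 and 0.89 in WT. The difference was -0.17 ± 0.437 (SE, 95% interval -1.26 to 0.92, adjusted p by limma = 0.795). It was -0.84 without WT replicate 1 and 0.51 without WT replicate 2, so that either WT array alone set the sign.

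Hamp, the gene of hepcidin, had 6.75 and 12.8 units in IKKb(EE)IEC and 6.46 and 19.0 in WT and was well above background on no array. Its neighbour Hamp2, which is no member and was looked at after its values were seen, had 76.4 and 77.5 units in IKKb(EE)IEC and 72.8 and 120.4 in WT. Its probe differed by -0.96 ± 0.246 (SE, adjusted p by limma over probes = 0.057). WT replicate 2 also stood apart in markers of hepatocytes, which make Hamp in the liver. Of the 11 hepatocyte markers on the array, 1 and 1 were well above background in IKKb(EE)IEC and 2 and 8 in WT. Their summed level, in units of the array's 75th percentile, was 2.68 and 2.28 in IKKb(EE)IEC and 5.63 and 35.9 in WT. Of the 2 markers tested, 1 fell, while 7.22% of all genes fell. The marker that fell was Mup1, whose IKKb(EE)IEC level was lower by at least 23.4-fold, with an adjusted p by limma of 0.040. Mup1 had 117 and 1324 units in WT and was above background on neither IKKb(EE)IEC array, so it entered the test only through WT. Without WT replicate 2 the bound was 7.29-fold. Fga, Ttr and Hpx were above background on no array, and the part of these transcripts in the values of Hfe and Hamp2 was not tested.

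Ferritin stores iron in a shell of heavy chains, from Fth1, which oxidise it, and light chains, from Ftl1, which help to deposit it. Neither chain passed the test, and they lay on opposite sides of 0. Fth1 had 57255 and 59904 units in IKKb(EE)IEC and 59492 and 51725 in WT at chr19:10052040-10052099, and no spot of it was saturated. Its scaled levels were 9.24 and 9.12 in IKKb(EE)IEC and 9.95 and 9.61 in WT, without overlap. The difference was -0.60 ± 0.194 (SE, 95% interval -1.08 to -0.12, adjusted p by limma = 0.087). It was -0.43 without WT replicate 1 and -0.77 without WT replicate 2.

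The size of the Fth1 difference depended on the scaling, although its sign did not. It was -0.17 after quantile normalization, -0.16 in the fit to the authors' deposited table and -0.20 with the repaired background correction. Fth1 was among the brightest 1% of genes tested, which held 125 genes with a median difference of -0.48 and quartiles of -0.65 and -0.36. The same 125 genes had a median of 0.04 after quantile normalization and 0.01 in the fit to the authors' deposited table. The value of Fth1 thus lay between the quartiles of genes as bright as itself.

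Ftl1 had 1039 and 1186 units in IKKb(EE)IEC and 608 and 583 in WT at chr7:45327649-45327708 on the minus strand. The scaled levels were 3.46 and 3.46 in IKKb(EE)IEC and 3.34 and 3.14 in WT, without overlap. The difference was 0.22 ± 0.171 (SE, 95% interval -0.21 to 0.65, adjusted p by limma = 0.379), and 0.54 with the repaired background correction (adjusted p = 0.030). A probe listed as Ftl2, a near copy now annotated as a pseudogene, differed by 0.30 (adjusted p by limma over probes = 0.271). Whether the probes tell these copies apart was not tested.

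Within the same array, the log2 signal of Ftl1 minus that of Fth1 was -5.78 and -5.66 in IKKb(EE)IEC and -6.61 and -6.47 in WT, which is 0.82 higher in IKKb(EE)IEC. Tfrc minus Fth1 was -7.70 and -7.84 in IKKb(EE)IEC and -9.05 and -8.83 in WT, which is 1.17 higher in IKKb(EE)IEC. The size of both gaps depended on the scaling. After quantile normalization they were 0.43 and 0.75, and they were 0.45 and 0.55 in the fit to the authors' deposited table. The exact permutation p was 0.333 for each, two-sided and before and after adjustment over the 3 pairs, the smallest this design allows.

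Tfrc, Fth1 and Ftl1 are the textbook transcripts under iron regulatory proteins, and their upstream sequences are shown because IKKb acts through NF-kB. The 250 bases before an annotated start are printed 5′ to 3′ from RefSeq (GRCm38.p6), with capitals for each match to a loose NF-kB pattern, GGG and CC with any 5 bases between, on either strand. The windows are chr16:32608646-32608895 on the plus strand, chr19:9982396-9982645 on the plus strand and chr7:45459887-45460136 on the minus strand.
Tfrc: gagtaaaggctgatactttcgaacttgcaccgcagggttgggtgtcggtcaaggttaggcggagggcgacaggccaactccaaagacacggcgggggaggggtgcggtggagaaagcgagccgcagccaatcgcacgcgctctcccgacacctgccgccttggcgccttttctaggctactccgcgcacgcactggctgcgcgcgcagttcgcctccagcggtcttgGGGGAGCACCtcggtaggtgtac
Fth1: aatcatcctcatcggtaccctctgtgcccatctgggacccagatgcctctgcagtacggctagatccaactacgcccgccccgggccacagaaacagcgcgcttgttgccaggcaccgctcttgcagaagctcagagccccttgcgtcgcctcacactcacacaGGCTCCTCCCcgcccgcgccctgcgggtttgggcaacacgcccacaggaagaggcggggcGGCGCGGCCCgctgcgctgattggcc
Ftl1: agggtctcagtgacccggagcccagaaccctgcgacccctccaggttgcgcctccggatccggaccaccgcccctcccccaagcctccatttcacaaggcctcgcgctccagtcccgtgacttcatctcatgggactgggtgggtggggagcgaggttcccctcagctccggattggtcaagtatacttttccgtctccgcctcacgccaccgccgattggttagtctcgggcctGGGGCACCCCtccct
The match began at -23 from the start in Tfrc, at -86 and -26 in Fth1 and at -15, on both strands at once, in Ftl1. Of the 6 members with a sequence in this table, which had 8 windows, 6 windows of 4 members held a match. The pattern is in 45.8% of all 32851 promoter windows of this length, and a match is no evidence of binding.

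Hmox1 encodes heme oxygenase 1, which releases iron from heme and is induced by heme and oxidative stress. It had 449 and 424 units in IKKb(EE)IEC and 282 and 307 in WT at chr8:77996380-77996439. The scaled levels were 2.25 and 1.98 in IKKb(EE)IEC and 2.23 and 2.21 in WT, and the genotypes overlapped. The difference was -0.11 ± 0.181 (SE, 95% interval -0.56 to 0.34, adjusted p by limma = 0.678), close to the median of all genes.

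Markers of macrophages, which recycle heme iron and also express Hmox1 and Slc40a1, were above background more often on the IKKb(EE)IEC arrays. Of 17 macrophage markers, 12 and 12 were well above background in IKKb(EE)IEC and 6 and 6 in WT. Over all spots the shares were 40.8% and 41.1% in IKKb(EE)IEC and 34.3% and 36.0% in WT. The summed level of the markers was 34.3 and 26.9 in IKKb(EE)IEC and 11.2 and 13.7 in WT. In limma 6 of the 12 tested rose and 0 fell (7 and 1 at an unadjusted p below 0.05), while 8.03% of all genes rose and 7.22% fell. Of the 6, 4 (Adgre1, C1qa, C1qc and Fcgr1) were above background on no WT array and entered the test only through IKKb(EE)IEC. Of the 7 tested markers above background in both genotypes, 2 were called, Ms4a7 and Mpeg1, and C1qb (-0.15) and Csf1r (0.34) were among those not called. Adgre1, C1qa, Mpeg1, C1qb and Csf1r are named here after their values were seen. Those with the largest change were C1qc, at least 17.4-fold higher (adjusted p by limma = 0.011), Fcgr1, at least 9.89-fold higher (adjusted p = 0.004), and Ms4a7, with a log2 difference of 3.03 (adjusted p = 0.038). In WT, Ms4a7 was above background on 1 array, and raising the other to its lowest level above background gave a difference of 2.67. For bounds of this kind each array of the dimmer genotype entered with its own value of the probe, or with its lowest level well above background where that was higher. Cd163, Mrc1, Vcam1 and Cd5l were above background on no array. The part of macrophage transcripts in the values of Hmox1, Slc40a1 and the other members was not tested.

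Wider iron metabolism was read from 8 lists with 134 genes, 107 of them tested. In these 107 genes 5 rose and 5 fell, or 9.35%, against 15.3% of all genes, and the median difference was 0.02. Of those that rose, Abcc1 was well above background on no WT array and entered the test only through IKKb(EE)IEC. At an unadjusted p below 0.05 in limma there were 30 of the 107, beside 4743 of all 12444 genes. The 10 calls were all lost without IKKb(EE)IEC replicate 1 or without IKKb(EE)IEC replicate 2, in fits where far fewer of all genes were called. None of the 10 changed sign under any alternative run.

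Among 19 tested genes of other iron and heme transport, 1 rose and 2 fell. Slc39a14, which encodes the metal importer ZIP14, had 272 and 307 units in IKKb(EE)IEC and 105 and 95.2 in WT (log2 difference 0.85 ± 0.181 SE, adjusted p by limma = 0.039). It passed under 10 of 15 alternatives and was 0.49 in the fit to the authors' deposited table. Scara5, which encodes a ferritin receptor, had 100.5 and 90.5 units in IKKb(EE)IEC and 143.5 and 146 in WT (-1.28, adjusted p = 0.018, and -0.73 with the repaired background correction, still called). Slc25a37, which encodes the mitochondrial iron importer mitoferrin, had 232 and 262 units in IKKb(EE)IEC and 250.4 and 262 in WT. These signals overlapped before scaling. After scaling the genotypes were apart, with a difference of -0.74 (adjusted p = 0.042), and it passed under 7 of 15 alternatives.

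In iron sensing and ferritin turnover, 1 of 10 tested genes fell and 0 rose in limma (2 and 0 at an unadjusted p below 0.05). Fbxl5 encodes the iron-binding subunit of the ubiquitin ligase that degrades iron regulatory proteins. It had 99.3 and 107 units in IKKb(EE)IEC and 154 and 182 in WT, lower in IKKb(EE)IEC even before scaling. The difference was -1.38 ± 0.166 (SE, adjusted p by limma = 0.009), and its other tested probes gave -1.45 and -1.21. It passed under 12 of 15 alternatives, but was -0.68 with the repaired background correction and -0.67 in the fit to the authors' deposited table. Among 16 genes of hepcidin control, 1 rose and 0 fell (3 and 1 at an unadjusted p below 0.05). Bmp2, a secreted factor that drives hepcidin when made by the liver endothelium, had 153 and 146 units in IKKb(EE)IEC and 35.7 and 32.7 in WT (1.45, adjusted p = 0.013). Its difference was 0.72 with the repaired background correction and 0.60 in the fit to the authors' deposited table.

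Heme synthesis had 8 tested genes, of which 1 rose and 0 fell in limma (1 and 1 at an unadjusted p below 0.05). Alas1, the rate-limiting enzyme of the pathway outside red cells, had 4489 and 4674 units in IKKb(EE)IEC and 972 and 1112 in WT. The difference was 1.46 ± 0.167 (SE, adjusted p by limma = 0.008), larger than that of any of the 8 members tested, and a further Alas1 probe gave 1.42. It passed under 12 of 15 alternatives, with values between 1.32 and 1.77. The exceptions for Alas1, Fbxl5, Bmp2 and Scara5 were the planned background correction and each of the 2 fits without an IKKb(EE)IEC array. Heme breakdown had 4 tested genes and no call in limma, with 1 at an unadjusted p below 0.05. Its smallest p-values were those of Blvrb (-0.69, adjusted p = 0.050, not below the threshold) and Blvra (-0.47, adjusted p = 0.214), the biliverdin reductases.

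Genes of iron-sulfur cluster assembly had no call among 20 in limma, with 3 at an unadjusted p below 0.05, led by Fdx1 (-0.61, adjusted p = 0.067) and Nubp1 (-0.65, adjusted p = 0.093). A further list held targets of the oxidative stress factor NRF2 other than Hmox1 and the ferritins. It also held Nfe2l2, the gene of NRF2, and the regulators Keap1, Bach1, Maff and Mafk. Among its 18 tested genes 2 rose and 2 fell. Keap1, the inhibitor of NRF2, rose by 1.16 (adjusted p by limma = 0.016). The export pump gene Abcc1 was measured 2.43-fold higher (adjusted p by limma = 0.011). It was well above background on neither WT array and entered the test only through IKKb(EE)IEC. Its measured log2 difference of 1.28 became 0.40 with the repaired background correction, where it was not called (adjusted p = 0.071), and 0.39 in the fit to the authors' deposited table. Gclm, of glutathione synthesis, fell by 1.33 (adjusted p = 0.016), and Prdx1, a peroxidase, fell by 1.10 (adjusted p = 0.034). In the fit to the authors' deposited table neither passed, with -0.36 for Gclm (adjusted p = 0.056) and -0.84 for Prdx1 (adjusted p = 0.074). Gclm was -0.54 with the repaired background correction, and Prdx1 was not called after quantile normalization (-0.89, adjusted p = 0.065) or without the filter on dim probes (adjusted p = 0.063). Targets of HIF-2 and hypoxia had no call among 13 in limma, with 4 at an unadjusted p below 0.05. Kdm3a differed by 0.69 (adjusted p = 0.077) and Higd1a by -0.53 (adjusted p = 0.083).

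**Figure D4:**
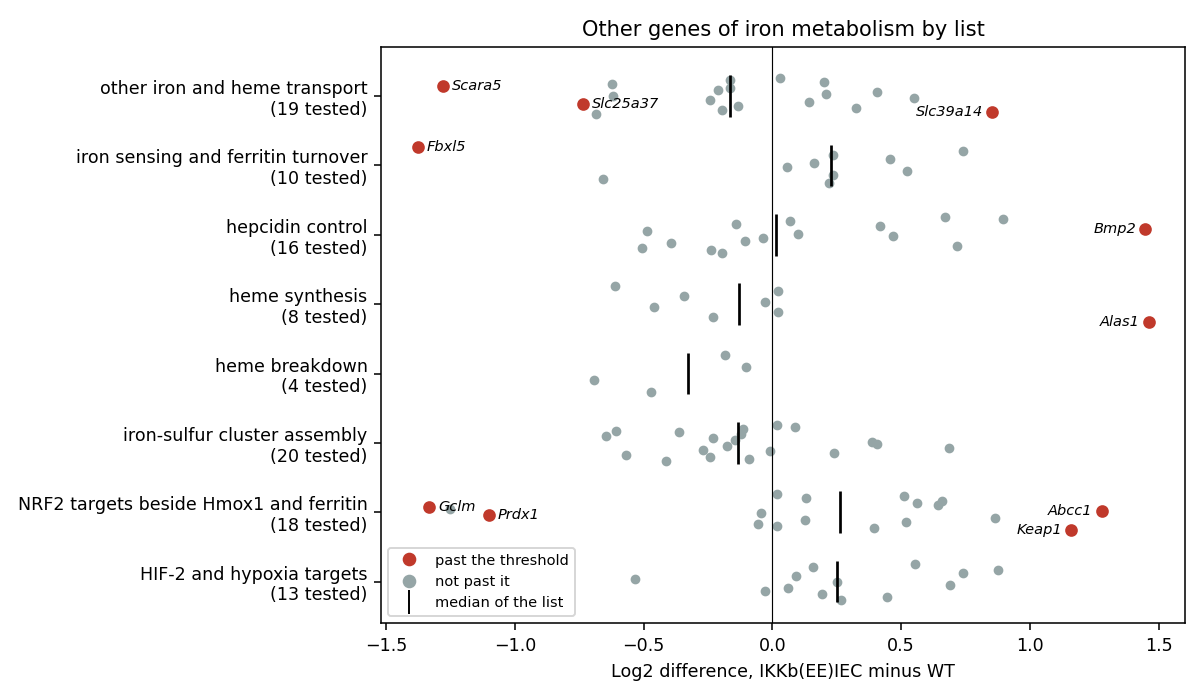
Log2 difference, IKKb(EE)IEC minus WT, of every tested gene in the 8 lists of iron metabolism. Red points with names passed the threshold, grey points did not, black bars are list medians, and the height within a list carries no meaning. The 10 named genes lie on both sides of 0, from Fbxl5 at -1.38 to Alas1 at 1.46.

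Some markers of the epithelium itself also differed. All 17 enterocyte markers were above background on every array, with a summed level of 6944 and 6964 in IKKb(EE)IEC and 13647 and 14483 in WT. Without Fabp1 and Fabp2 the sum over the other 15 was 2988 and 3009.0 in IKKb(EE)IEC and 2784 and 2583 in WT, which turns the direction, and the median difference of all 17 was -0.25. Over all genes tested 8.03% rose and 7.22% fell. Of these 17 genes 1 rose, the aminopeptidase gene Anpep (1.10, adjusted p by limma = 0.017), and 3 fell, the fatty acid binding proteins Fabp2 (-1.56, adjusted p by limma = 0.016) and Fabp1 (-1.35, adjusted p = 0.038) and the lactase gene Lct (-1.26, adjusted p = 0.028). Fabp1 and Fabp2 were brighter than Fth1 on every array. The brightest 1% of genes had a median difference of -0.48, which was 0.04 after quantile normalization. The values of Fabp1 and Fabp2 under other scalings are not given here. Iron is absorbed mainly in the duodenum, and the sum over 11 markers of the proximal small intestine, Fabp1 and Lct included, was 1822 and 1726 in IKKb(EE)IEC and 5029 and 3184 in WT. Without Fabp1 it was 439 and 482 in IKKb(EE)IEC and 669 and 605 in WT. Most of the gap left was that of Lct, whose scaled log2 levels were 6.67 and 6.90 in IKKb(EE)IEC and 8.30 and 7.81 in WT. The lower proximal sum thus rests on Fabp1 and Lct, which are also enterocyte markers. Of 10 tested, 1 rose, Onecut2 by 3.05 (adjusted p = 0.020, or 2.69 with the WT array where it was not above background raised to its lowest level above background), and 3 fell, Fabp1, Lct and Hnf4g (-0.97, adjusted p = 0.034), while Pdx1 was above background on no array. The sum over 12 distal markers was 997 and 1171 in IKKb(EE)IEC and 677 and 876 in WT. Without Guca2a it was 301 and 321 in IKKb(EE)IEC and 439 and 508 in WT, which turns the direction, and the list's median difference was -0.39. Guca2a was higher (1.38, adjusted p = 0.032) and Nts (-1.27, adjusted p = 0.018) and Slc51a (-0.81, adjusted p = 0.036) were lower. The part of segment and enterocyte content in the values of Slc11a2 and the other members was not tested.

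Red cell precursors need transferrin receptor and heme enzymes, and 8 of their markers were on the array. Over all spots the shares above background were 40.8% and 41.1% in IKKb(EE)IEC and 34.3% and 36.0% in WT. Of the 8 markers, 3 and 4 were above background in IKKb(EE)IEC and 2 and 2 in WT. Their summed levels were 88.5 and 28.7 in IKKb(EE)IEC and 25.3 and 34.2 in WT. Of 3 tested, Klf1 was called higher (adjusted p by limma = 0.004), while 8.03% of all genes were called higher. Klf1 was above background on no WT array, entered the test only through IKKb(EE)IEC and was at least 1.13-fold higher. Hbb-bt (0.82, adjusted p = 0.331) and Hba-a1 (0.62, adjusted p = 0.320) were not called, and are named after their values were seen. Alas2, Epb42 and Rhag were above background on no array. Proliferating cells also carry transferrin receptor. Of their 12 markers, 11 and 11 were above background in IKKb(EE)IEC and 9 and 11 in WT, with summed levels of 79.3 and 87.1 in IKKb(EE)IEC and 77.6 and 121 in WT. None of 11 tested was called in limma, with 2 at an unadjusted p below 0.05, Mki67 (0.68, adjusted p = 0.095) and Mcm2 (0.66, adjusted p = 0.066), and Rrm2 was above background on no array. The part of these cells in the value of Tfrc was not tested.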

How the data were processed

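Spot intensities were deposited by the authors as scanner output of Agilent Feature Extraction 9.5.3.1 (array design 014868, probe coordinates in mm8), per the file headers. The processed signal is background-subtracted, with substituted values for dim spots. The authors' deposited value table gives linear intensities of 40913 probes, with medians of 111.5 to 112, and the sources used here do not give their normalization. Other columns are flags, per the file headers.

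Control and outlier spots (56 to 88 per array) were left out, and log2 signals were shifted by each array's 75th percentile. Names came from RefSeq accessions (GRCm38.p6) for 24375 probes, through another probe of the same listed name for 4647, and from the files for 12152. A gene took its tested probe with the highest mean. Genotypes were compared with limma 3.58.1 in R 4.3.3 (lmFit, eBayes, two-sided, Benjamini-Hochberg over 12444 genes). The fit was checked on simulated data. Precision is limited by 4 arrays and, for dim probes, by background.

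All 10 members are named with every probe. From each iron list up to 4 called genes with the largest change are named, or 2 with the smallest p if none was called. From each marker list come up to 3 called genes and markers never above background, and 3 genes nearest in profile to a called member. Genes such as Hamp2, Ftl2, Ikbkb, Anpep and Hnf4g lie outside this rule and were chosen after their values were seen, and 1 gene within it is not reported here. Members and lists were chosen with earlier results of these data known. Alternatives covered scaling, normexp background correction, filters, probe choice, intensity trend, replicate block and arrays left out. A normexp correction with the local background of 6 spots above 1000 units replaced by the array median was added after seeing the data.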

Additional observations from a re-analysis of the deposited data

How the results depend on the processing

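The count of 1898 genes called became 0 with the planned normexp correction (172 at an unadjusted p below 0.05 in limma), where 6 spots with a local background above 1000 units entered the model, and 852 without the filter on dim probes, where 27734 genes were tested. It ranged from 248 to 6165 with an array left out, where the lone array of a genotype is assumed to vary like the other pair. The count of 1 member called became 0 with planned normexp, with no filter (Slc11a2 at adjusted p = 0.063) and with the mean of a gene's probes, 4 with the repaired normexp (Slc11a2, Heph, Tfrc and Ftl1), and 0 to 4 with an array left out. The iron lists' 10 calls became 0 with planned normexp, 18 with the repaired one, and 0 to 47 with an array left out. Members with an unadjusted p below 0.05 in limma numbered 0 with planned normexp, 3 with no filter and 2 with the mean of probes. Over all genes these counts were 172 of 12444, 14125 of 27734 and 4670 of 12444. Signs turned for Slc40a1 (0.018 with planned normexp, 0.015 with the repaired one, 0.002 without WT replicate 2, and from -0.35 to 0.13 over the arrays left out), Hfe (from -0.84 to 0.51, without WT replicate 1 and 2) and Hmox1 (0.14 with the repaired normexp, and from -0.24 to 0.027 without IKKb(EE)IEC replicate 1 and 2), and the cause was not tested. Slc11a2, Heph, Tfrc, Fth1 and Ftl1 kept their sign under all 15 alternatives. Requiring all 4 arrays above background gave 770 genes higher and 1156 lower. Samples of the same number deviated together with a correlation of 0.108, and 2 pairs do not show pairing. With the replicate block 1501 genes were called, 1 member (Slc11a2, adjusted p = 0.048) and 8 genes of the iron lists.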
